A study of Mus musculus with 6 samples.

Results

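The 10 genes described here belong to the output and feedback arms of the circadian clock: the period genes Per1, Per2 and Per3, the cryptochromes Cry1 and Cry2, the nuclear receptors Nr1d1 and Nr1d2, and the PAR bZIP factors Dbp, Tef and Hlf. They were chosen by name, and every probe set whose platform annotation gives 1 of these symbols was taken. That gave 22 probe sets for the 10 genes, of 18193 named genes in the table. Of these probe sets 17 passed a filter on low intensity and were tested, at least 1 for each gene, among 12626 named genes tested in all. The 5 others were 1 each of Per2, Nr1d2 and Tef and 2 of Per3.

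The samples were L1 spinal cord from male SCID mice, a strain without mature T and B cells, all 15 weeks old, and RNA was measured on 6 microarrays. In the N-inv group (neural invasion model) cells of the human pancreatic cancer line Capan-1 had been placed inside the left sciatic nerve 6 weeks earlier. The SC group carried the same cells subcutaneously and the PBS group was the vehicle control, for which the labels name no site. Each group had 2 arrays. The labels do not say that they came from separate animals, so p-values measure the spread between these arrays, which may be technical. The mice lived in a light-controlled room, per the labels' protocols, but the light schedule and the hour of dissection are not given in the sources used here.

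In most mammalian cells the activators CLOCK and BMAL1 (encoded by Arntl), or NPAS2 in place of CLOCK, bind E-box sequences and drive the Per, Cry, Nr1d and PAR bZIP genes. PER and CRY proteins then repress those activators, and the receptors REV-ERBα and REV-ERBβ (encoded by Nr1d1 and Nr1d2) repress Arntl, so that Arntl and Dbp messages peak at opposite times of day. DBP, TEF and HLF bind D-box sequences in further targets, among them Per genes, and clocks of peripheral tissue and brain are also set by glucocorticoids and temperature.

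The letters of these elements could be looked for in RefSeq promoter windows (GRCm38.p6), each running from 250 bases before to 50 after a transcript start. Windows were listed for 9 of the 10 genes, 11 windows in all. The E-box CACGTG was in 4 of the 11 windows, of Per1, Cry1 and Tef, and in 7.15% of all 32851 windows. The D-box letters TTATGTAA or TTACGTAA were in 1 of 11, against 1.06% of all. The cyclic AMP element TGACGTCA was in 1 of 11, against 1.79%, and the ROR element cores TAGGTCA and TGGGTCA were in 0 of 11, against 6.45%. Both strands were searched and no matches overlapped. Such a match is a description of the letters and not a mapped binding site.

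The Per3 window is shown whole because it held 2 D-box matches, at 205 and 158 bases before the start, and Per3 was the member whose array values lay nearest to those of Dbp. It lies at chr4:151044616-151044915 on the minus strand, and the capitals mark the D-boxes.
Per3: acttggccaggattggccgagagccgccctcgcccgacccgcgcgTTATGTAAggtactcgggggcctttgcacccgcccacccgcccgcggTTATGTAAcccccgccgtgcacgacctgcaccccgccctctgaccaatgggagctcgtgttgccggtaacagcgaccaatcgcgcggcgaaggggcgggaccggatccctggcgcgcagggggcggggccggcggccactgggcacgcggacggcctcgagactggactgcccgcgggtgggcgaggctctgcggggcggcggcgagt

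The other matches are shown with 20 bases on each side, because they let a repressor (Cry1), a period gene (Per1) and the relatives of Dbp (Tef and Hlf) be set beside Per3. The capitals mark the E-box in the Per1 (chr11:69098763-69098808, plus strand), Cry1 (chr10:85185089-85185134, minus strand) and both Tef sequences (chr15:81802526-81802571 and chr15:81811256-81811301, plus strand), and the cyclic AMP element in Hlf (chr11:90390899-90390946, minus strand).
Per1: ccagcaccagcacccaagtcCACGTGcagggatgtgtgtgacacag
Cry1: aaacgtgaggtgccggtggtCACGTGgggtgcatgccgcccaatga
Tef, first start: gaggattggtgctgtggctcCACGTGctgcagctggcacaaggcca
Tef, second start: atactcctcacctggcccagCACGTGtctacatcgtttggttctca
Hlf: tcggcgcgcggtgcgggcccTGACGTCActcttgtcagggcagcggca

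Before the results, the SC arrays need a remark. SC replicate 2, labelled male, had Xist, the RNA of the silenced X chromosome in female cells, at an intensity of 13065, against 139 to 229 in the other 5 arrays. The same array also had the highest level of the Y-linked gene Eif2s3y, at 3152, while SC replicate 1 had the lowest, at 1344, and the other 4 lay between 2369 and 2651. Both kinds of transcript were thus present in SC replicate 2. Both SC arrays also correlated less with the rest, with a median r of 0.97 each against 0.98 in the others. Their Actb 3' to 5' ratios, a sign of RNA quality, were 3.81 and 4.70 against 3.05 to 3.57. The Gapdh ratios were 2.82 and 3.02 in PBS, 3.12 and 3.38 in N-inv, then 3.52 and 3.38 in SC. By Gapdh, N-inv replicate 2 thus lay with the SC arrays. The cord markers were present, with 4 Hox genes of lumbar position summing to between 25653 and 30277 in the 6 arrays. Single Hox genes set the SC arrays apart. Hoxd10 measured 4777 and 4439 in SC against 2338 to 3139 in the other groups. Hoxc8 measured 3802 and 4263 in SC against 4483 to 5407, while Hoxa9 and Hoxc10 overlapped between SC and the other groups. Of 4 listed sensory ganglion markers 2 passed the filter, Prph at 3167 to 6654 and Isl1 at 387 to 546. The sensory neuron channel Scn10a and Avil were below it. Main results that rest on SC arrays are therefore also given without SC replicate 2 or SC replicate 1.

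Values are probe set intensities after each array was scaled to a median of 256.2. Differences were taken on log2(intensity + 25.6), which understates the change of dim genes, and tested with limma over all 6 arrays. The probe set with the highest mean stands for a gene unless another is named, and intensities are not compared between genes.

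Dbp, the D-box activator that is among the clock outputs of largest daily swing in many tissues, had the widest range of the 10 genes. It measured 12238 and 11592 in PBS, 11612 and 4933 in N-inv, then 5615 and 3508 in SC. N-inv replicate 1 thus lay with the PBS arrays, and N-inv replicate 2 lay between the SC arrays. The second Dbp probe set measured 2639 and 2756 in PBS, 3000.5 and 1141 in N-inv, then 1086 and 737 in SC. Both probe sets placed the same 3 arrays high and the same 3 low. The range over the 6 arrays was 1.80 on the log2 scale, and 2.24% of all probe sets tested had a larger one, the median range being 0.58.

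Within N-inv the Dbp arrays differed 2.35-fold, a gap of 1.23 on the log2 scale. A larger gap between these 2 arrays was found in 0.677% of all probe sets tested. In PBS the ratio of the arrays was 1.06, and 74.9% of probe sets had a larger gap there. The group means in order were PBS at 11915 ± 457, N-inv at 8273 ± 4723 and SC at 4562 ± 1489.8 (SD, n = 2 each). Only PBS and SC did not overlap for the brighter probe set. For the second one SC lay below both other groups.

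**Figure D1:**
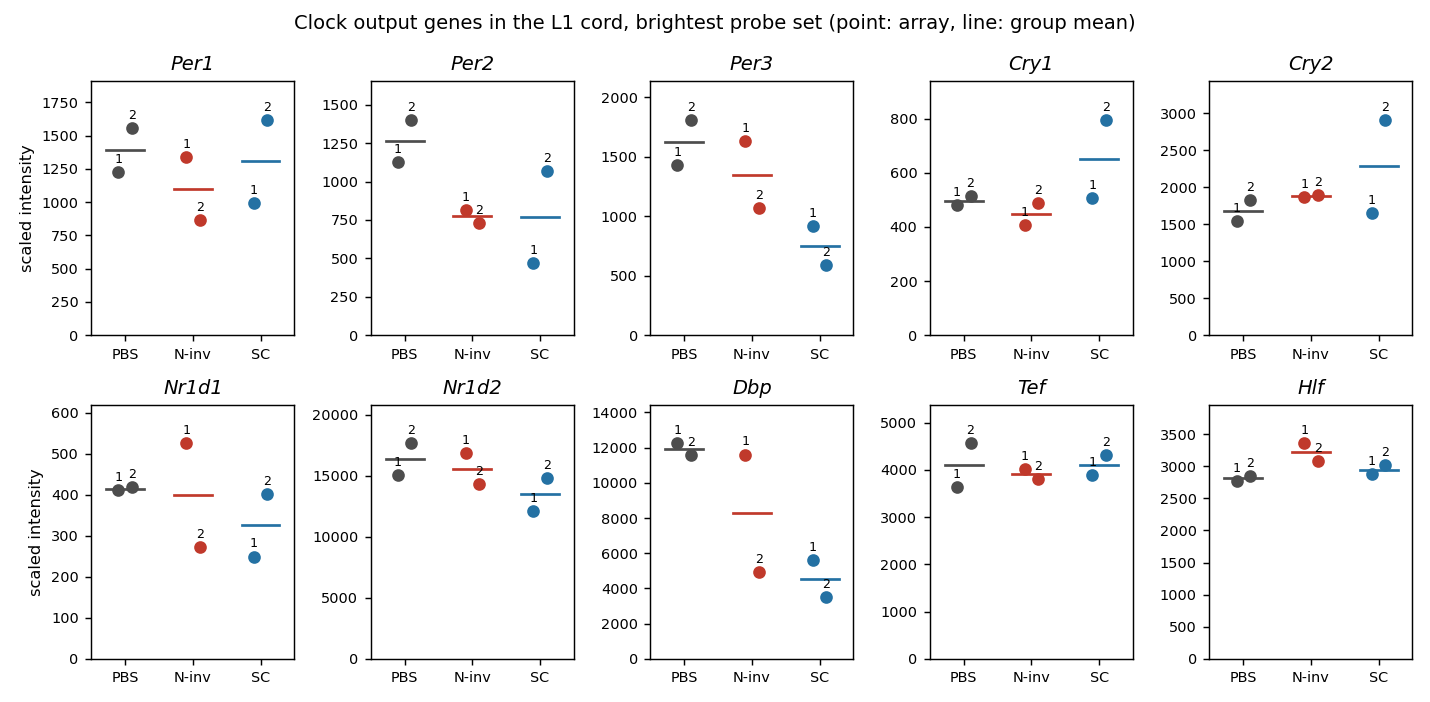
Scaled probe set intensity (vertical axis, linear from 0) of the 10 clock output genes in the PBS, N-inv and SC groups; each point is 1 array with its replicate number and each line is the mean of 2 arrays. Dbp and Per3 are lowest in SC replicate 2 and Dbp in N-inv replicate 2 lies at 4933 while replicate 1 lies at 11612.

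Among the period genes, whose proteins form the repressor complex with the cryptochromes, Per3 came nearest to Dbp. It measured 1430.1 and 1812 in PBS, 1631 and 1069.9 in N-inv, then 914 and 587 in SC. SC replicate 2 was the lowest array and SC as a group lay below PBS and N-inv without overlap. The 3 other tested Per3 probe sets also had their lowest value in SC replicate 2, at 773, 421 and 472, and their highest in N-inv replicate 1, at 1226, 896 and 697. Their ranges were smaller, from 0.54 to 1.05 on the log2 scale against 1.58 for the brightest. SC lay below PBS without overlap in all 3, but in 2 of them SC overlapped N-inv.

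Per2 measured 1126 and 1403 in PBS, 813 and 733 in N-inv, then 467 and 1067 in SC. Its N-inv arrays differed little, by a ratio of 1.11, and both lay below PBS, while SC spanned a log2 gap of 1.15. The second Per2 probe set gave 544 and 347, 319 and 236, and 459 and 236 in the same order of groups. The PBS arrays were above the N-inv arrays in both, but the probe sets put the SC arrays in opposite order.

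Per1, which is also switched on directly by glucocorticoids and by the CREB pathway, measured 1229 and 1560.1 in PBS, 1336 and 867 in N-inv, then 995 and 1619 in SC. All 3 groups overlapped. N-inv replicate 2 was the lowest array, as SC replicate 2 was the highest, so Per1 did not share the array order of Dbp and Per3.

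Cry1 and Cry2, the cryptochrome repressors, were highest in SC replicate 2. Cry1 measured 481 and 513 in PBS, 406 and 488 in N-inv, then 508 and 796 in SC. Cry2 measured 1541 and 1820.3 in PBS, 1864 and 1888 in N-inv, then 1647 and 2909 in SC. Apart from SC replicate 2 the Cry2 arrays lay between 1541 and 1888.

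The REV-ERB receptor genes, repressors of Arntl, were lowest in SC replicate 1. Nr1d1 measured 411 and 419 in PBS, 525 and 273 in N-inv, then 249.6 and 403 in SC. Its N-inv arrays differed 1.92-fold, with a larger gap in 2.10% of probe sets tested. Nr1d2 measured 15052 and 17639.7 in PBS, 16828 and 14352 in N-inv, then 12147 and 14783 in SC. For both genes SC lay below PBS without overlap and N-inv overlapped each of the other groups.

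Tef and Hlf, the PAR bZIP relatives of Dbp, had narrow ranges by their brightest probe sets. Tef measured 3637 and 4559 in PBS, 4029 and 3809 in N-inv, then 3897 and 4309 in SC, and all groups overlapped. A second Tef probe set disagreed, with 2044 and 2109.8 in PBS, 2137 and 1610.5 in N-inv, then 1335 and 1123 in SC. That probe set put the arrays in the same order as the second Dbp probe set, with SC below both other groups.

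Hlf measured 2772 and 2855 in PBS, 3355 and 3088 in N-inv, then 2872 and 3016 in SC. These groups did not overlap, in the order N-inv, SC, PBS, although the whole range was 0.27 on the log2 scale and 91.4% of probe sets tested had a larger one. The second Hlf probe set overlapped between all groups, at 1899 and 2606, 2014 and 1738, and 1652 and 2238. The order of the groups for Hlf therefore differed between its probe sets.

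**Figure D2:**
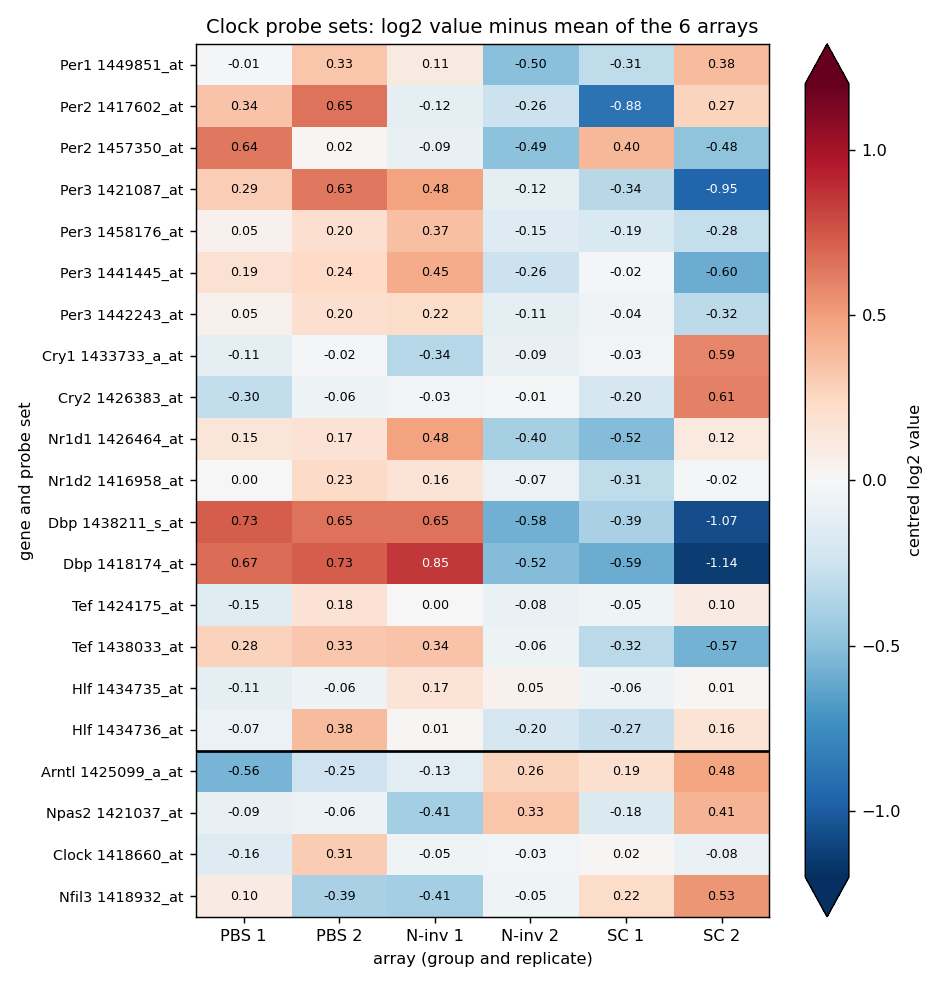
Log2 value of each tested clock probe set minus its mean over the 6 arrays (colour and printed number), with arrays as columns and the 17 tested member probe sets above the black line. Below it are the brightest probe sets of Arntl, Npas2, Clock and Nfil3. Dbp, Per3 and the second Tef probe set are positive in both PBS arrays and N-inv replicate 1 and negative in the other 3, while Arntl has the opposite signs.

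The activator side of the loop was read from genes outside the 10. Arntl, which encodes BMAL1, measured 498 and 625 in PBS, 682 and 900.5 in N-inv, then 856 and 1048 in SC. SC replicate 2, the lowest array for Dbp, was the highest for Arntl, and the 3 arrays with high Dbp were the 3 with low Arntl. Both genes thus divided the arrays in the same way in opposite directions, and that division ran through the N-inv group. Arntl was also higher in both N-inv arrays than in PBS, by 0.47 ± 0.22 (SE), as were 21.7% of all probe sets tested. For Dbp these 2 groups overlapped. The share of all probe sets that divide the arrays as Dbp does was not counted.

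Npas2, the CLOCK relative of forebrain and other tissues, measured 206 and 210.4 in PBS, 160.0 and 285 in N-inv, then 193 and 302 in SC. Clock, whose message cycles weakly in many tissues, measured 1903 and 2635, 2053 and 2078, and 2153 and 2013. Nfil3, a repressor that competes for D-boxes, measured 267 and 183, 181 and 238, and 294 and 369. In N-inv, replicate 2 was the higher array for Arntl, Npas2 and Nfil3 and also for Cry1 and Cry2. It was the lower one for Dbp, Per1, Per2, Per3, Nr1d1, Nr1d2, Tef and Hlf, by 0.08 and 0.12 on the log2 scale in the last pair.

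**Figure D3:**
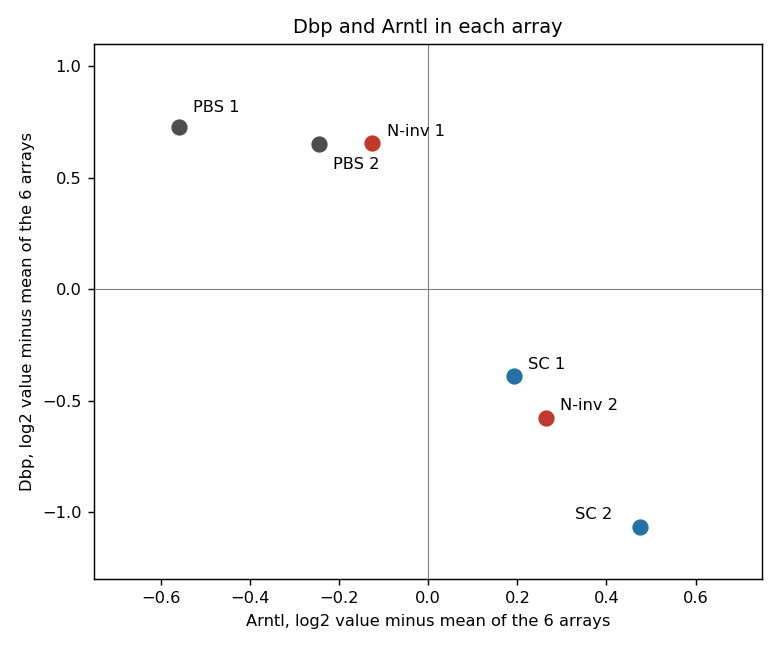
Dbp (vertical) against Arntl (horizontal) in each of the 6 arrays, each as log2 value minus the mean of the 6 arrays, coloured by group. PBS 1, PBS 2 and N-inv 1 sit at upper left, with Dbp between 0.65 and 0.73, and SC 1, N-inv 2 and SC 2 at lower right, with Dbp between -1.07 and -0.39. The pair was shown because these genes are known to peak at opposite times, and its values had been seen.

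The first comparison asked whether these genes differed between the nerve tumour model and vehicle. In limma 0 of the 10 genes, and 0% of 27022 probe sets tested, had an adjusted p under 0.05. At an unadjusted p under 0.05 there were 0 of 10 genes, against 2.27% of all probe sets in the higher and 1.76% in the lower direction. The median log2 difference over the 10 genes was -0.13, against 0.02 over all probe sets tested, with 8 genes lower and 2 higher. Without N-inv replicate 2 it was 0.00 and without N-inv replicate 1 it was -0.37.

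Per2 had the largest difference between N-inv and PBS, -0.68 ± 0.36 (SE, 95% interval -1.55 to 0.18, adjusted p of 1.0 in limma), and was the only 1 of the 10 whose N-inv arrays both lay below PBS. For all probe sets tested 14.6% did so. Dbp differed by -0.65 ± 0.41 (SE), with an interval from -1.64 to 0.34. Without N-inv replicate 1 the Dbp difference was -1.27 and without N-inv replicate 2 it was -0.04. Cry2 and Hlf lay above PBS without overlap, as 21.7% of all probe sets did, by 0.16 and 0.19.

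Next, N-inv was compared with SC, in which the mice had received the same tumour cells elsewhere. No member passed the adjusted threshold (0 of 10 genes, and 0% of all probe sets tested). Per3 was the 1 gene with an unadjusted p under 0.05, higher in N-inv, as were 5.95% of all probe sets, and 0 genes were lower, against 2.95%. By probe set these were 1 of Per3 and the second of Tef, 2 of the 17 tested. The second Tef probe set differed by 0.59 ± 0.20 (SE) and by 0.47 without SC replicate 2. The log2 difference of Per3 was 0.83 ± 0.29 (SE, 95% interval 0.12 to 1.53), with an adjusted p of 0.507 in limma. It was 0.52 without SC replicate 2 and 0.37 as the median of its tested probe sets.

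Per3 and Hlf were the 2 genes whose N-inv arrays both lay above SC, against 23.7% of all probe sets. Without SC replicate 2 there were 6 such genes, against 54.2%, and without SC replicate 1 there were 3, against 35.3%. Dbp differed by 0.77 ± 0.41 (SE), with an interval from -0.23 to 1.76, and by 0.43 without SC replicate 2. Its second probe set differed by 1.03 ± 0.43 (SE) without overlap, and by 0.76 without SC replicate 2. On the lower side was Cry1, at -0.49 ± 0.24 (SE, interval -1.06 to 0.08), the only member whose N-inv arrays both lay below SC, as in 13.3% of all probe sets. Without SC replicate 2 the Cry1 difference was -0.18 and without SC replicate 1 it was -0.80. The median over the 10 genes was 0.12, against 0.05 over all probe sets, and without SC replicate 1 it was -0.11.

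The third comparison set the subcutaneous tumour model against vehicle. Here too 0 of 10 genes, and 0% of all probe sets, passed the adjusted threshold in limma. At an unadjusted p under 0.05 Dbp and Per3 were lower in SC, 2 of 10 genes against 5.16% of all probe sets in that direction, and 0 were higher, against 2.72%. By probe set these were both of Dbp, 1 of Per3 and 1 of Tef, 4 of the 17 tested.

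Dbp differed between SC and PBS by -1.42 ± 0.41 (SE, 95% interval -2.41 to -0.43), 0.374 of the PBS level on the scale of the fit. Its adjusted p in limma was 0.538, and without SC replicate 2 the difference was -1.08. The second Dbp probe set differed by -1.56 ± 0.43 (SE), and by -1.29 without SC replicate 2. Per3 differed by -1.11 ± 0.29 (SE, interval -1.81 to -0.40, adjusted p of 0.520 in limma), and by -0.80 without SC replicate 2 and -0.44 as the median of its tested probe sets. The second Tef probe set differed by -0.75 ± 0.20 (SE), or -0.63 without SC replicate 2, while the brightest was at 0.01 ± 0.18 (SE), with an interval from -0.42 to 0.44.

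Per2, Per3, Nr1d1, Nr1d2 and Dbp were the 5 genes whose SC arrays both lay below PBS, against 20.2% of all probe sets tested. Without SC replicate 2 there were 6 such genes, against 50.5%, and without SC replicate 1 there were 5, against 32.2%. Per2 was at -0.81 ± 0.36 (SE), at -1.38 without SC replicate 2 and at -0.23 without SC replicate 1. Nr1d1 was at -0.36, with -0.68 and -0.04 without SC replicate 2 and 1. Nr1d2 was at -0.28, with -0.42 and -0.14 in the same order. Hlf was the 1 gene whose SC arrays both lay above PBS, as in 14.2% of all probe sets. Cry1 and Cry2 had higher means in SC, at 0.34 ± 0.24 and 0.38 ± 0.28 (SE), and without SC replicate 2 they were at 0.03 and -0.02. The median over the 10 genes was -0.20, against -0.02 over all probe sets tested. It was -0.44 without SC replicate 2 and 0.02 without SC replicate 1. All 3 comparisons share arrays, so they are not separate tests of one pattern.

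**Figure D4:**
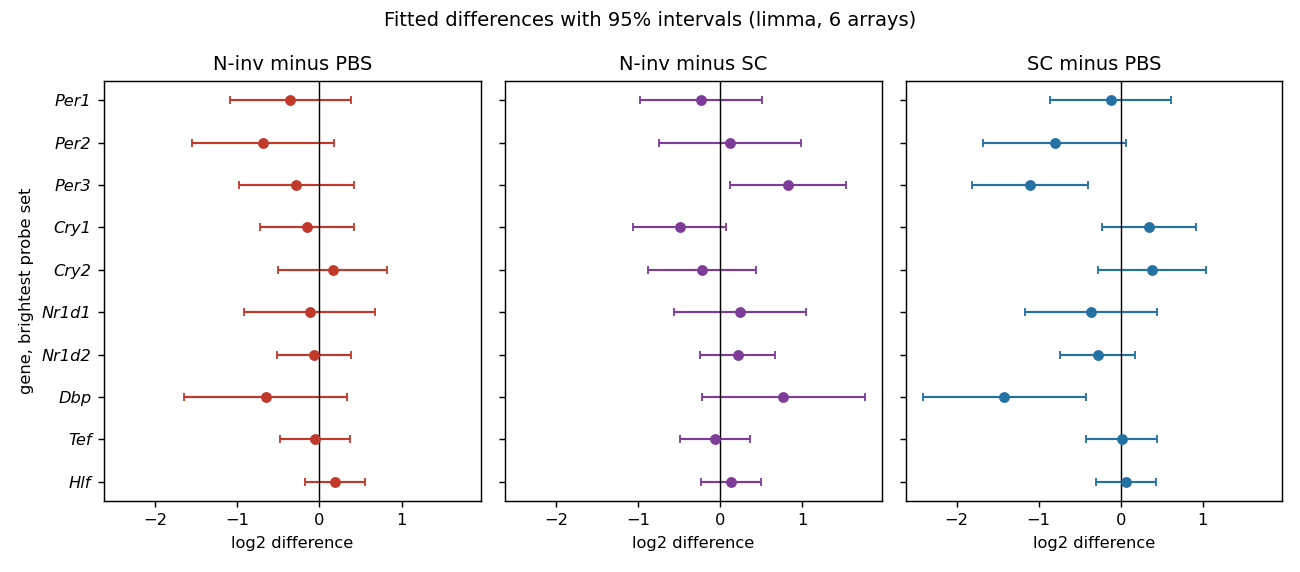
Fitted log2 difference of each of the 10 genes (brightest probe set) in the 3 comparisons, with 95% intervals from limma over 6 arrays; the vertical line is no difference. The intervals of Dbp and Per3 in SC minus PBS and of Per3 in N-inv minus SC lie to 1 side of 0, before adjustment for 27022 tests.

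In bulk tissue fewer cells of a type and less RNA per cell cannot be told apart. Of 4 listed markers of oligodendrocytes, the myelin-forming cells, 3 were on the array under their symbol and all 3 passed the filter. Their summed intensity was 82877 and 87627 in PBS, 90245 and 92587 in N-inv, then 90110.1 and 90310.0 in SC, and Mbp made up most of it. Mbp was itself higher in SC than in both other groups without overlap, whereas Mag and Mog, 2 myelin proteins of lower intensity, were lowest in SC. Mag measured 9461 and 8741 in PBS, 11221 and 9264 in N-inv, then 7001 and 5317 in SC. Mog measured 3808 and 3480.4 in PBS, 3697 and 3126 in N-inv, then 2469 and 1282 in SC. These genes were singled out after their values were seen.

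Markers of other cells were read beside these, and none passed the adjusted threshold in limma, as for all probe sets tested. The 4 microglia markers summed to 2590.2 and 2589.7 in PBS, 4134 and 4345 in N-inv, then 2555 and 1683 in SC. Each of the 4 was higher in N-inv than in PBS and SC without overlap. Of all probe sets tested 21.7% were so against PBS and 23.7% against SC. P2ry12, a purine receptor of resting microglia, differed by 1.17 in N-inv minus SC and by -0.83 in SC minus PBS. The other microglia markers overlapped between SC and PBS, with Aif1 at -0.19, Cx3cr1 at -0.39 and Tyrobp at 0.13. The 4 astrocyte markers summed to 64003 and 70882 in PBS, 91644 and 87241 in N-inv, then 53172 and 78767 in SC, and Gfap differed by 1.45 in N-inv minus PBS. The 3 neutrophil markers summed to 2045 and 367 in PBS, 305 and 395 in N-inv, then 1532 and 3359 in SC. The 3 arrays with high Dbp were also the 3 with the lowest Gapdh 3' to 5' ratio. The part of all these cells, and of the Actb and Gapdh ratios, in the values of the clock genes was not tested.

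Glucocorticoid targets were read because Per1 is one of them. Of 8 genes 0 passed the adjusted threshold in any comparison. In SC minus PBS the median was 0.35, with 6 higher and 2 lower, and without SC replicate 2 it was -0.26, with 2 higher and 6 lower. In N-inv minus SC it was -0.90, with all 8 lower, and without SC replicate 2 it was -0.03, with 4 higher and 4 lower. The direction of the SC minus PBS median and the size of the N-inv minus SC median thus rested on SC replicate 2. Sult1a1, a sulfotransferase with the smallest p of the list, measured 1011 and 1067 in PBS, 903 and 977 in N-inv, then 1305 and 3205 in SC. Fkbp5, which binds the glucocorticoid receptor complex, measured 1211 and 1241 in PBS, 1315 and 1321 in N-inv, then 1479 and 5147 in SC.

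The kinase gene Sgk1 measured 23919.6 and 27244 in PBS, 17679 and 5969 in N-inv, then 14721 and 43877 in SC. N-inv replicate 2 was the lowest array and SC replicate 2 the highest, as for Per1. Dbp and Per3 were both at their lowest in SC replicate 2, where Fkbp5 and Sgk1 were at their highest. The part of this axis in the values of Per1, Per2, Cry1 and Cry2 in SC replicate 2 was not tested.

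Other clock genes were counted from lists. In N-inv minus PBS, N-inv minus SC and SC minus PBS in turn, 0 genes of any list passed the adjusted threshold in limma. The 3 tested core activators (Clock, Arntl and Npas2) had medians of 0.04, -0.15 and 0.19. Arntl differed by 0.74 between SC and PBS, with an unadjusted p of 0.0125, and by 0.60 without SC replicate 2. The 2 tested ROR receptor genes, activators of Arntl, had medians of 0.11, -0.08 and 0.19.

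The 5 other clock repressors had medians of -0.08, 0.01 and 0.04. Of these Bhlhe40, an E-box competitor also known as DEC1, measured 2245 and 2652 in PBS, 3268 and 3317 in N-inv, then 1694 and 2124 in SC, and differed by 0.79 between N-inv and SC (unadjusted p of 0.00425), and by 0.95 without SC replicate 2. Ciart, a repressor of the BMAL1 complex, measured 810.1 and 666, 706 and 392.2, and 423 and 592. Its 2 lowest arrays were N-inv replicate 2 and SC replicate 1, which were also the 2 lowest for Nr1d1.

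The 8 tested kinases, ligases and partners of PER and CRY had medians of 0.03, 0.02 and -0.06, and 0 of them had an unadjusted p under 0.05 in any comparison. Among them were Fbxl21, a ubiquitin ligase subunit for CRY, and Csnk1e, a casein kinase that marks PER for breakdown. Csnk1e measured 2897 and 3190 in PBS, 3209.6 and 3361 in N-inv, then 2681 and 2914 in SC. The 9 tested other rhythmic outputs had medians of 0.03, -0.00 and 0.03, again with 0 under that p. In SC minus PBS 7 of these 9 were higher and 2 lower. Without SC replicate 2 all 9 were lower, with a median of -0.19, and without SC replicate 1 all 9 were higher, at 0.29. The median in N-inv minus SC was 0.29 without SC replicate 2, with 8 of 9 higher. It was -0.30 without SC replicate 1, with 8 of 9 lower. Klf10, a zinc finger factor with the smallest p of that list, measured 412 and 398 in PBS, 464 and 516 in N-inv, then 382 and 442 in SC.

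Without SC replicate 2 the medians of the other lists in SC minus PBS were -0.06 for the activators, -0.10 for the ROR genes, 0.13 for the other repressors and -0.18 for the partners of PER and CRY. In N-inv minus SC they were -0.06, 0.21, -0.24 and 0.18 in the same order. The sign in SC minus PBS differed from that with both arrays for the activators and the ROR genes. In N-inv minus SC it differed for the ROR genes and the other repressors. Without SC replicate 1 the medians in SC minus PBS were 0.49, 0.48, -0.05 and 0.03 in the same order of lists. In N-inv minus SC they were -0.41, -0.37, -0.16 and -0.02. Here the sign differed from that with both arrays for the other repressors and the partners of PER and CRY, in both comparisons.

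By likeness over the 6 arrays, measured as the Euclidean distance between centred log2 profiles, Per3 ranked 5 among 12625 other genes for nearness to Dbp, at a distance of 0.67. Nr1d1 ranked 805, Nr1d2 1351, Per2 3690, Per1 4817, Hlf 5216 and Tef 5353, and Cry1 and Cry2 11977 and 11943. A gene with no change over the arrays would lie at 1.73, the length of the Dbp profile. Nr1d1 and Nr1d2 lay nearer than that, at 1.43 and 1.52, and Per2 about there, at 1.69. Per1, Hlf and Tef lay slightly farther, at 1.75, 1.77 and 1.77, so their ranks show no likeness to Dbp. By this distance Per3 was the nearest member, followed by the REV-ERB genes, and the cryptochromes were the farthest. Only the brightest probe set of each gene entered it. The 5 nearest genes outside the 10 were E330020D12Rik (0.52), Il33 (0.56), Slc13a3 (0.57), Net1 (0.65) and Fgd2 (0.73).

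Il33, an alarm cytokine stored in nuclei, measured 4705 and 4247 in PBS, 4350.2 and 2873 in N-inv, then 2268 and 1559 in SC. Slc13a3, a transporter of dicarboxylates, measured 1965 and 1978, 1732 and 1192, and 1101 and 685. Both had their 3 highest values in the PBS arrays and N-inv replicate 1, which follows from their choice by nearness to Dbp over these arrays. For Per1 the nearest were Myo5b, 9030607L20Rik, Cep290, Atp7b and Lamp2, at distances of 0.22 to 0.24, and Nr1d1 was the nearest member, at rank 612. The profiles share only 6 arrays, which limits what nearness shows.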

How the data were processed

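RNA from 6 L1 cord samples was measured on Affymetrix 3' arrays; 100 ng of total RNA was labelled, per the labels' protocols. The authors deposited linear intensities per probe set, and each array's 2% trimmed mean was 1000, so the authors had scaled them. The sources used here do not give how probes were summarised. For this work 64 control probe sets were left out of 45101, arrays were scaled to the median of all values (256.2), and a mean over the 40th percentile (155) was required, leaving 27022. The fit used limma 3.58.1 in R 4.3.3 on log2(intensity + 25.6), two-sided, 1 mean per group, 3 residual and 3.59 prior degrees of freedom, with Benjamini-Hochberg adjustment over all 27022. Precision is limited by the number of arrays: with 2 against 2 the smallest exact permutation p is 0.333, so that test was not run. Promoter windows were read from RefSeq tables of GRCm38.p6, and 1 member (Per2) had no entry. The scripts were tested on simulated data.

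The members and gene lists were chosen with earlier results of these data known. Named were all 10 members with every probe set, from each pathway list at most 4 genes among those with the smallest p, Clock, Arntl, Npas2 and Nfil3 always, and the 5 nearest profiles to Dbp and Per1. Heat and cold responsive genes and CREB and activity targets are given in the closing section. Alternatives were other scalings, pseudocounts, filters and variance models, a replicate block, and each array left out. Cell type markers were named after their values were seen.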

Additional observations from a re-analysis of the deposited data

How the results depend on the processing

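No clock member had an adjusted p under 0.05 in any comparison under the 15 alternatives that gave one (14 for Nr1d1, limma), the lowest being 0.194 for Per3 in SC minus PBS. Probe sets called in N-inv minus PBS were 1 with an intensity trend (Depp1) and 1 with only the groups compared (Sprr1a), and 0 to 1 leaving out an array. In N-inv minus SC they were 1 with a pseudocount of the whole median, 2 with an intensity trend, and 0 to 2 leaving out an array, and in SC minus PBS 0 to 10 leaving out an array. The members' median lay between -0.37 and 0.0016, -0.11 and 0.27, and -0.44 and 0.021 leaving out an array, in the order N-inv minus PBS, N-inv minus SC, SC minus PBS. Dbp kept its sign in all 3 comparisons under all 16 alternatives. Over the 10 members, 455 values kept their direction and side of the threshold and 22 turned sign. Taking the median over a gene's probe sets, Hlf turned to -0.027 in N-inv minus PBS, Per2 to -0.063 and Tef to 0.26 in N-inv minus SC, and Tef to -0.37 and Hlf to -0.072 in SC minus PBS. The other turns came from leaving out an array, and ranges over the left-out arrays follow. In N-inv minus PBS, Per3 lay between -0.58 and 0.018, Nr1d1 between -0.56 and 0.32 and Nr1d2 between -0.18 and 0.046, each with its ends without N-inv replicate 1 and 2, and Tef between -0.22 and 0.11 without PBS replicate 1 and 2. In N-inv minus SC, Per1 lay between -0.58 and 0.11, Per2 between -0.45 and 0.70, Cry2 between -0.63 and 0.19 and Tef between -0.14 and 0.0075 without SC replicate 1 and 2, and Nr1d1 between -0.20 and 0.68 without N-inv replicate 1 and 2. In SC minus PBS, Per1 lay between -0.47 and 0.22 and Cry2 between -0.024 and 0.79 without SC replicate 2 and 1, and Tef between -0.15 and 0.17 without PBS replicate 1 and 2. The causes were not tested. A group left with 1 array was assumed to vary like the others. Nr1d1 lay below the filter at the 60th percentile and has no value there. The median over probe sets has no p. Counts of genes without overlap, gene lists, second probe sets, Arntl and Bhlhe40 without an SC array were alternatives chosen after seeing the data.

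With the replicate number as a block 0 probe sets were called in each comparison and the members' medians were -0.13, 0.12 and -0.20, as without it. Deviations of same-numbered arrays correlated at 0.01 (PBS and N-inv), 0.04 (PBS and SC) and -0.03 (N-inv and SC), so the numbers were not taken to pair the arrays.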

Other observations

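Genes that respond to heat and cold were read beside the clock genes because body temperature is a clock signal. Of the 7 tested, 0 passed the adjusted threshold in limma, and in N-inv minus PBS 3 were lower at an unadjusted p under 0.05, against 1.76% of all probe sets. They were Hspa1b, Hspa1a and Dnajb1, an inducible chaperone pair and their partner. Hspa1b measured 3988 and 7698 in PBS, 635 and 1640.4 in N-inv, then 2767 and 1215 in SC. Hspa1a measured 1475 and 2495, 685 and 1056, and 1431 and 846. The medians of this list in N-inv minus PBS, N-inv minus SC and SC minus PBS were -0.15, -0.08 and -0.14. Without SC replicate 2 they were -0.04 and -0.12 in the comparisons that use SC.

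CREB and activity targets, which share the inducing pathway of Per1, had medians of -0.16, -0.06 and 0.00 over 7 genes in the same order. Sik1, a kinase that restrains CREB signalling and light resetting of the clock, measured 169.6 and 167 in PBS, 79.5 and 111 in N-inv, then 258 and 184 in SC. It lay below both other groups in N-inv, by -0.70 against PBS and by -1.03 against SC. The unadjusted p in limma were 0.0158 and 0.00246. Of all probe sets tested 14.6% and 13.3% were lower in N-inv without overlap in these comparisons. The mean of Sik1 over all arrays was 162, close to the filter at 155, and its N-inv mean of 95.1 lay below that filter. These p-values are thus for a dim gene that only just entered the test. Junb, an immediate early factor, measured 417 and 388 in PBS, 532 and 526 in N-inv, then 412 and 436 in SC. Without SC replicate 2 Sik1 differed by -1.24 from SC, and without SC replicate 1 it lay below the filter. Of the 7 genes 0 passed the adjusted threshold in any of the 3 comparisons.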
